A study of Mus musculus with 6 samples.

Results

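The genes described here encode enzymes that build, lengthen and desaturate fatty acids in the cytosol and endoplasmic reticulum: *Acly*, *Acss2*, *Acaca*, *Fasn*, *Elovl6*, *Elovl5*, *Scd1*, *Scd2*, *Fads1* and *Fads2*. They were taken by name from the count table of a keratinocyte RNA-seq experiment, 10 of its 55367 gene names, and all 10 had enough counts to be among the 14916 genes tested. The rule that chose them reads gene names and no measured value, and it was set with earlier results of these data known.

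Fatty acid synthesis starts from acetyl-CoA, which ATP-citrate lyase (*Acly*) cuts from citrate and acetyl-CoA synthetase (*Acss2*) makes from acetate. Acetyl-CoA carboxylase (*Acaca*) converts it to malonyl-CoA, and fatty acid synthase (*Fasn*) joins these units into palmitate. Elongases (*Elovl5*, *Elovl6*) then add carbons, stearoyl-CoA desaturases (*Scd1*, *Scd2*) place the first double bond in saturated chains, and the delta-5 and delta-6 desaturases (*Fads1*, *Fads2*) act on polyunsaturated ones. Many of these genes are known targets of the SREBP transcription factors, and epidermal cells use their products for membranes and for the lipids of the skin barrier.

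Primary mouse keratinocytes, epidermal cells put into culture straight from the skin of pups of day 2, came from Ppp1r13lflox/flox;Cre+ERT mice of a mixed background (C57BL/6 and 129/Sv). Both copies of *Ppp1r13l*, the gene of iASPP, carried loxP sites in all cultures, and the inducible Cre was expressed from the Rosa locus, which is active in most cell types, rather than from a keratinocyte promoter. Each of 3 batches held an iASPP-KO culture, whose medium held tamoxifen from 24 h after plating, and an iASPP-WT culture without tamoxifen. The drug and the deletion therefore cannot be told apart in any difference below. The tamoxifen concentration is 1 mM in the sample labels and 1 μM in the study's methods, and the cells were kept for 4 days. The labels do not say how many pups made up a batch, or whether both cultures of a batch came from the same cell preparation.

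Single reads of 42 bases from ribosome-depleted RNA gave 20202517 to 25157117 counts per library. Levels are given as CPM, a gene's counts scaled to 1000000 counts of tested genes after TMM scaling, and 3 counts corresponded to 0.123 to 0.141 CPM, a floor that covers counting error only. Changes are log2 fold changes, iASPP KO over iASPP WT, from one model with batch and condition, with the standard error (SE) and the p of edgeR's quasi-likelihood test, Benjamini-Hochberg adjusted over all tested genes. *Ppp1r13l* itself had 14.3, 17.7 and 5.91 CPM in iASPP KO of batches 1, 2 and 3 and 32.7, 45.1 and 21.0 in iASPP WT, lower in KO in each batch. In bulk RNA, fewer cells of a type and less RNA per cell cannot be told apart.

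In iASPP KO, 4 of the 10 genes had significantly higher expression, namely *Acly*, *Acss2*, *Scd1* and *Fads2*. By edgeR 0 of the 10 were significantly lower in iASPP KO, as by DESeq2 and limma-voom, and the 6 with an unadjusted p under 0.05 were all higher. Over all tested genes 2.17% were called higher and 1.95% lower in iASPP KO, and 8.66% were higher at an unadjusted p under 0.05. The median log2 fold change of the 10 genes was 0.55, beside 0.01 over all tested genes. In 8 of the 10 the KO culture was above the WT culture in all 3 batches, as it was for 19.5% of tested genes, and the exceptions were *Fasn* and *Elovl5*. For *Scd1*, *Fads1* and *Fads2* every KO culture lay above every WT culture, a pattern that 5.26% of tested genes had. The 4 calls were not equally firm: *Acss2* was called with any single batch left out, whereas 2 genes were called without batch 1 (*Acss2* and *Fads2*), 2 without batch 2 (*Acss2* and *Scd2*) and 5 without batch 3. Without the batch term none was called, with adjusted p from 0.97 upward for each of the 10.

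**Figure D1:**
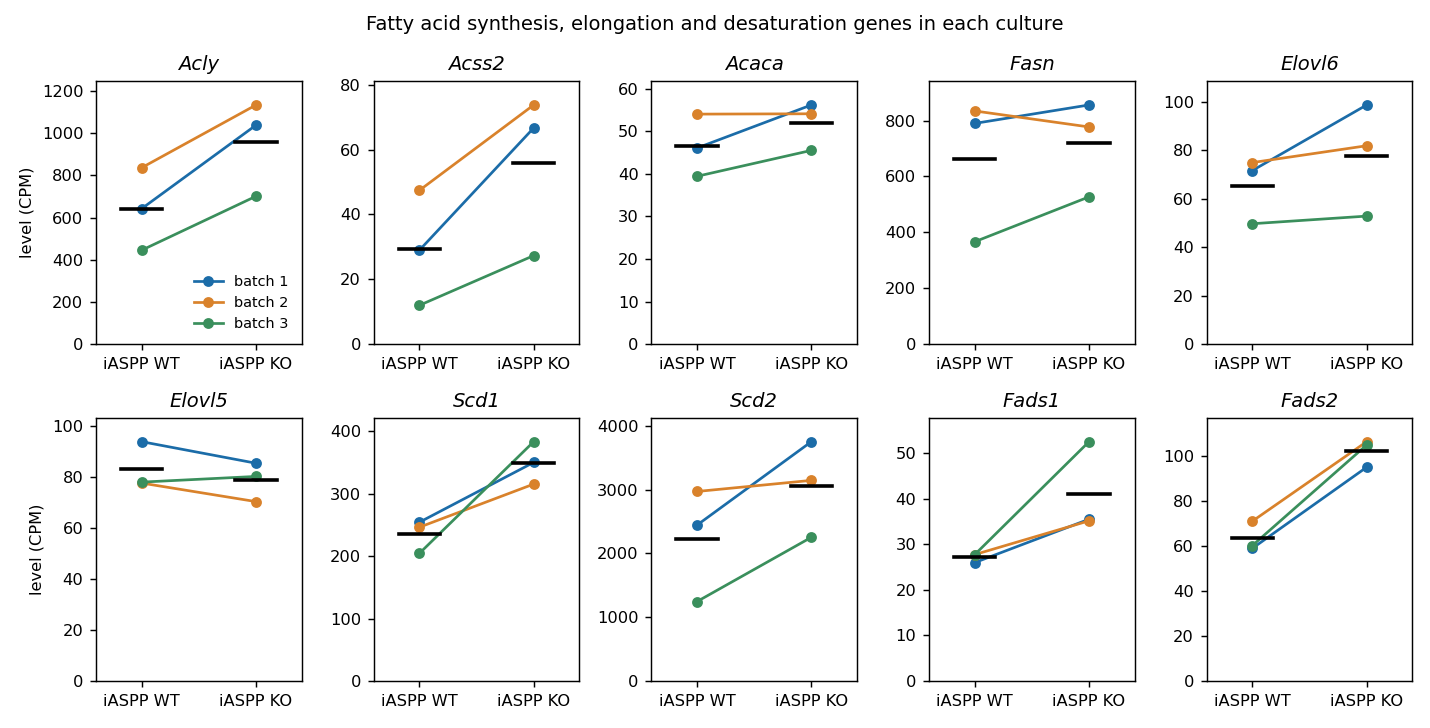
Level of each gene in CPM (y axis, from 0) in the iASPP-WT and iASPP-KO culture of each batch; a line joins the cultures of one batch and black bars are means over 3 cultures. The lines slope up in every batch for 8 genes, while *Fasn* had 834 CPM in WT and 777 in KO of batch 2 and *Elovl5* was lower in KO in batches 1 and 2.

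**Figure D2:**
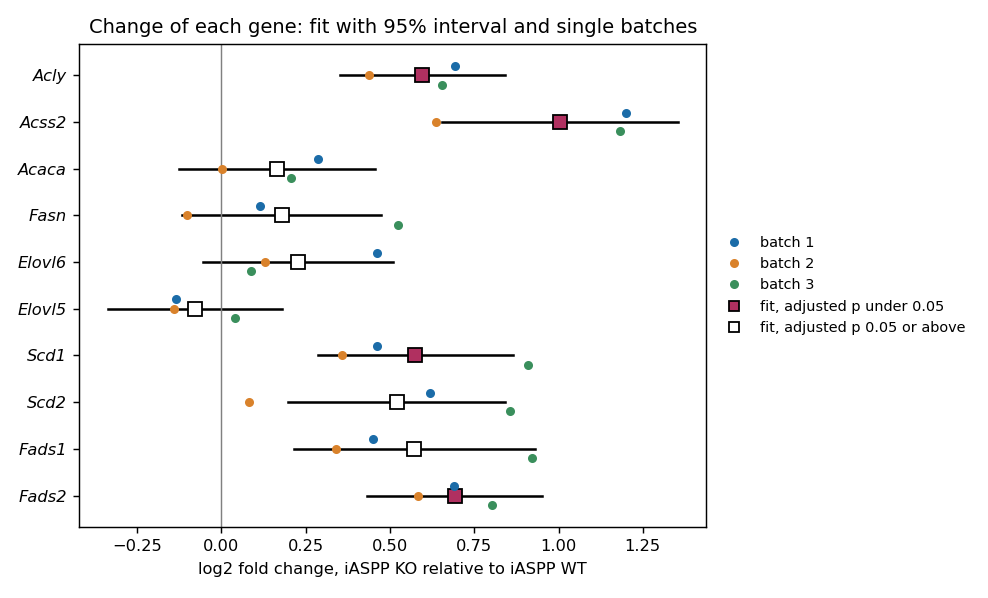
Log2 fold change, iASPP KO over iASPP WT (x axis), for each gene: squares are the fitted value, filled where the adjusted p was under 0.05, bars its 95% interval, and dots the single batches. The 4 filled squares lie between 0.58 and 1.00, and the intervals of *Acaca*, *Fasn*, *Elovl6* and *Elovl5* cross 0.

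The sequences around the start sites are shown for 3 of the called genes and for *Fasn*, the synthase itself, which was not called. They are RefSeq promoter windows on GRCm38.p6, 250 bases before to 50 bases after the start, read 5′ to 3′ on the gene's strand, and 7 of the 10 genes matched an entry, with *Scd1*, *Scd2* and *Fads1* unmatched. Capitals mark the NF-Y box (CCAAT) and the Sp1 box (GGGCGG) on either strand, so that ATTGG and CCGCCC are marked too.
Acly, chr11:100527951-100528250, minus strand: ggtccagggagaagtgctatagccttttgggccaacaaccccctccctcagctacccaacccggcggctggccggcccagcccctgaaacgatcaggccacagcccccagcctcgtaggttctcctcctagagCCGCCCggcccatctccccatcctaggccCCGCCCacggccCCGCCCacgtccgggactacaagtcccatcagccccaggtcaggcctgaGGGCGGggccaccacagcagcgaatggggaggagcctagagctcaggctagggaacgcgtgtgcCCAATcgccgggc
Acss2, chr2:155517793-155518092, plus strand: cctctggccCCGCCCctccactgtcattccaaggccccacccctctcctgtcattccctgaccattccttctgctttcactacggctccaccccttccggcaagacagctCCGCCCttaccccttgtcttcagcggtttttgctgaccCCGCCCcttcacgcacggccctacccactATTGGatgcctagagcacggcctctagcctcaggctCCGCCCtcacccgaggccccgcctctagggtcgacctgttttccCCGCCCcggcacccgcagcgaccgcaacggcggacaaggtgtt
Fads2, chr19:10101454-10101753, minus strand: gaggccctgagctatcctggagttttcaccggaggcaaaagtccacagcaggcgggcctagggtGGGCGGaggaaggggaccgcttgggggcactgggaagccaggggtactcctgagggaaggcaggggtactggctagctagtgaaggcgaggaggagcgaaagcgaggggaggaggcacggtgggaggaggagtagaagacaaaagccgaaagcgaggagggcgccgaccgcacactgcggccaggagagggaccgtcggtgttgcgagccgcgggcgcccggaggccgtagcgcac
Fasn, chr11:120824498-120824797, minus strand: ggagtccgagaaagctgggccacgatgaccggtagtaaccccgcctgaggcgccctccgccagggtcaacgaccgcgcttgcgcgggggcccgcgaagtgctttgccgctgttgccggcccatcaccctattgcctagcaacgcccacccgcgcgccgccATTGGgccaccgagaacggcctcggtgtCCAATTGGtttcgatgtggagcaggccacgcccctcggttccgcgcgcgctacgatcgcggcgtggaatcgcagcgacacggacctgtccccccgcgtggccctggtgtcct
The NF-Y letters occurred in 4 of the 7 windows (*Acly*, *Acss2*, *Fasn* and *Elovl5*), beside 37.4% of all 32851 promoter windows of the same length. The only *Acly* match lay after the start, at position 38, and the matches of the other genes lay before it. The *Fasn* window held 3 NF-Y matches, of which the neighbouring pair on opposite strands shares letters, and no Sp1 box. The Sp1 letters were in 3 of the 7 (*Acly*, *Acss2* and *Fads2*; 35.7% of all windows), with 5 copies in *Acss2*, 4 in *Acly* and 1 in *Fads2*. The last *Acss2* copy lay after the start, at position 8. An E-box (CACGTG) was in the *Elovl5* window alone among the 7 (7.15% of all). The sterol regulatory element TCACNCCAC was in none of the 7 (1.24% of all), nor was the AP1 site TGANTCA (7.81% of all). These matches describe letters in these windows and no binding was measured here. The *Acaca* window, counted among the 7 and without any of these letters, starts at 84195188 on chromosome 11. That is inside the gene, whose annotated exons start at 84129672, so the sequence before that first start was not read.

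Both genes that make acetyl-CoA for this pathway rose. *Acly* (chromosome 11, 100476353 to 100528000 on GRCm38, minus strand) had 1039, 1134 and 701.5 CPM in iASPP KO of batches 1, 2 and 3 and 642, 837 and 446 in iASPP WT. Each KO culture was above its partner, but the groups overlapped, since batch 3 was the lowest in both conditions and its KO culture lay below the WT culture of batch 2. The mean was 958 ± 227 CPM in KO and 642 ± 195 in WT (SD, n = 3), a log2 fold change of 0.60 (SE 0.11, adjusted p = 0.017). The adjusted p was 0.095 without batch 1 and 0.060 without batch 2.

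*Acss2* (chromosome 2, 155517948 to 155585724, plus strand) had the largest change of the 10. Its levels were 66.7, 73.8 and 27.3 CPM in iASPP KO and 29.0, 47.4 and 11.98 in iASPP WT, so that each KO culture was well above its partner while batch 3 was far below the others in both conditions. The log2 fold change was 1.00 (SE 0.16, adjusted p = 0.0084), with 1.20, 0.64 and 1.18 in the single batches. It was the only one of the 10 still called when genes with a log2 fold change under 1 in size were left out. Of its exon bases, 9.12% lie opposite exons of *Acss2os*, *Ggt7* or *Gss*, and the part of reads from these genes in its level was not tested.

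The step that commits acetyl-CoA to synthesis did not pass the test. *Acaca* (chromosome 11, 84129672 to 84401651, plus strand) had 56.2, 54.1 and 45.5 CPM in iASPP KO and 46.1, 54.0 and 39.4 in iASPP WT. The pairs differed little, batch 2 hardly at all, and the groups overlapped. The log2 fold change was 0.16 (95% interval −0.13 to 0.45, adjusted p = 0.61), and the upper end of its interval lay below the fitted changes of *Acly* and *Acss2*, though differences between genes were not tested. More than any other of the 10, *Acaca* shares sequence with another gene: 54.3% of the 42-base windows of its longest transcript also occur in *Gm5182*, so reads from these windows fit both. *Gm5182* held 7 to 24 counts per library.

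*Fasn* (chromosome 11, 120805846 to 120824547, minus strand) had 856, 777 and 527 CPM in iASPP KO and 789.9, 834 and 366 in iASPP WT. Its pairs disagreed in direction, as did those of *Elovl5*. *Fasn* was higher in KO in batches 1 and 3 and lower in batch 2. The log2 fold change was 0.18 (95% interval −0.12 to 0.47, adjusted p = 0.58), with 0.12, −0.10 and 0.52 in the single batches. The ratio of *Acly* to *Fasn*, taken per exon length, was 2.52, 3.03 and 2.76 in KO and 1.69, 2.08 and 2.52 in WT, higher in KO in every batch by 1.49, 1.46 and 1.09 times.

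The elongases showed no change past the threshold. *Elovl6* (chromosome 3, 129532355 to 129638495, plus strand), which extends palmitate to stearate, had 98.7, 81.9 and 52.9 CPM in iASPP KO and 71.6, 74.9 and 49.7 in iASPP WT. Its KO culture was higher in each batch, mainly in batch 1, and the groups overlapped. The log2 fold change was 0.23 (95% interval −0.05 to 0.51, adjusted p = 0.42). *Elovl5* (chromosome 9, 77917364 to 77984519, plus strand), an elongase of polyunsaturated chains, had 85.3, 70.3 and 80.1 CPM in KO and 93.8, 77.5 and 77.9 in WT. It had the only fitted value below 0 among the 10, a log2 fold change of −0.08 (95% interval −0.34 to 0.18, adjusted p = 0.81), and its KO and WT cultures were mixed in order.

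Of the stearoyl-CoA desaturases, *Scd1* passed the test and *Scd2*, the more abundant, did not. *Scd1* (chromosome 19, 44394455 to 44407879, minus strand) had 350.4, 316 and 384 CPM in iASPP KO and 254, 246 and 204 in iASPP WT. No WT culture reached any KO culture. The mean was 349.9 ± 34.0 CPM in KO and 235 ± 26.8 in WT (SD, n = 3), a log2 fold change of 0.58 (SE 0.13, adjusted p = 0.037). The adjusted p was 0.075 without batch 1 and 0.078 without batch 2.

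*Scd2* (chromosome 19, 44293674 to 44306864, plus strand) had 3750.4, 3144 and 2252 CPM in iASPP KO and 2442, 2969 and 1244 in iASPP WT. Batches 1 and 3 differed clearly between the conditions and batch 2 barely, and the KO culture of batch 3 lay below 2 of the 3 WT cultures. The log2 fold change was 0.52 (95% interval 0.20 to 0.84, adjusted p = 0.081), with 0.62, 0.08 and 0.86 in the single batches. It was called by DESeq2, by limma-voom, without a filter on low counts, and without batch 2 or batch 3. Whether the changes of *Scd1* and *Scd2* differed was not tested, and the per-length ratio of *Scd2* to *Scd1* moved by 1.12, 0.83 and 0.96 times in the 3 batches. Windows shared with other genes made up 6.01% of *Scd1* and 5.08% of *Scd2*, some of them with each other, and *Scd2* overlaps *Mir5114* on its own strand over 61 bases.

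Both polyunsaturated desaturases had every KO culture above every WT culture. *Fads2* (chromosome 19, 10062765 to 10101746, minus strand), which encodes the delta-6 desaturase, had 94.96, 106 and 105 CPM in iASPP KO and 58.9, 71.0 and 60.1 in iASPP WT. The cultures of a condition lay close together and batch 3 was not set apart. The mean was 102 ± 6.17 CPM in KO and 63.3 ± 6.64 in WT (SD, n = 3), a log2 fold change of 0.69 (SE 0.12, adjusted p = 0.012). Without batch 2 the adjusted p was 0.054.

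*Fads1* (chromosome 19, 10182888 to 10196877, plus strand), the delta-5 desaturase gene next to *Fads2*, had 35.5, 35.2 and 52.6 CPM in iASPP KO and 26.0, 27.8 and 27.7 in iASPP WT. The WT cultures were almost level, and the KO culture of batch 3 stood above the other two. The log2 fold change was 0.57 (95% interval 0.22 to 0.93, adjusted p = 0.084), about that of *Scd1* with a wider error, and it was called by limma-voom and without a filter on low counts. The ratio of *Fads2* to *Fads1* per exon length moved by 1.18, 1.18 and 0.92 times.

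Set side by side, the 10 genes spanned a wide range of levels. Per 1000 exon bases, *Scd2* was the highest with 406 CPM in iASPP WT and 558 in iASPP KO, followed by *Acly* with 122 and 181. In WT the order went on with *Fasn* (60.6), *Scd1* (48.0), *Elovl5* (23.6), *Fads2* (19.2), *Elovl6* (10.2), *Fads1* (5.65), *Acss2* (2.90) and *Acaca* (2.72). The neighbours *Fasn* and *Scd1*, and *Acss2* and *Acaca*, overlapped between their 3 WT cultures, and the other neighbours did not. In KO *Scd1* (71.5) stood before *Fasn* (65.8) and *Fads2* (31.0) before *Elovl5* (22.3), of which the first pair overlapped and the second did not. Exon lengths are those of all annotated exons of a gene, so a gene with many unused exons has its level understated, and how reads from the shared windows of *Acaca* were counted was not tested.

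**Figure D3:**
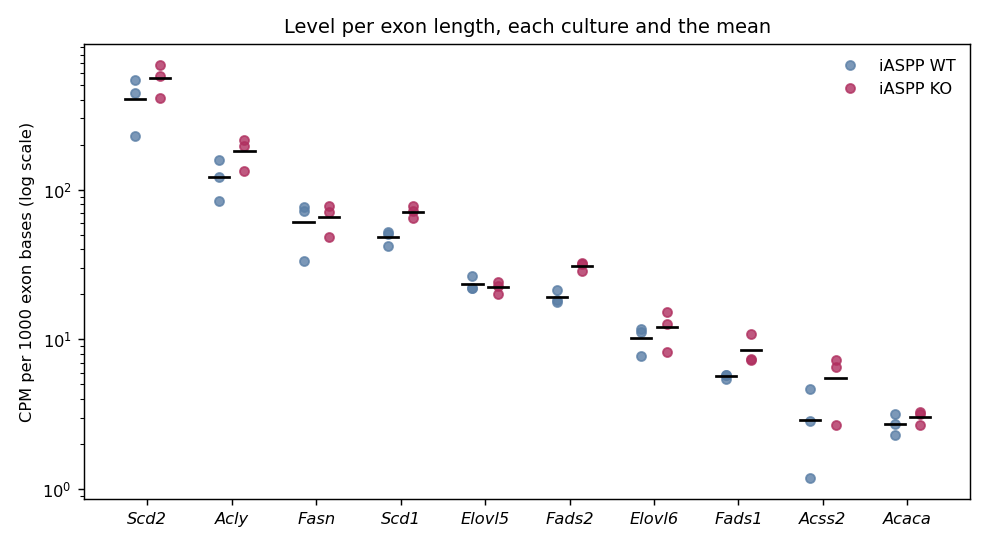
CPM per 1000 exon bases (log axis) of each gene in the 3 iASPP-WT and 3 iASPP-KO cultures, with black bars at the means, in order of the WT mean. Levels run from 2.72 for *Acaca* to 406 for *Scd2* in WT, and the KO cultures of *Fads2*, *Scd1* and *Fads1* stand clear of their WT cultures.

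The 10 genes together took 0.588%, 0.548% and 0.449% of all counts in iASPP KO and 0.445%, 0.508% and 0.281% in iASPP WT of batches 1, 2 and 3. *Scd2* alone made up 49.2% to 58.3% of them. The share was higher in KO in each batch, and the WT culture of batch 3 was the lowest.

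Batch 3 stood below the other batches for some of the genes and near them for others. Relative to the mean of batches 1 and 2 on the log2 scale, its WT culture differed by −1.62 for *Acss2*, −1.15 for *Fasn*, −1.11 for *Scd2*, −0.72 for *Acly* and −0.56 for *Elovl6*. In the KO culture of batch 3 it was −1.36 for *Acss2*, −0.61 for *Scd2*, 0.21 for *Scd1* and 0.57 for *Fads1*. In WT it was −0.29 for *Scd1*, −0.10 for *Fads2* and 0.05 for *Fads1*. These last 3 desaturase genes are those whose KO and WT cultures did not overlap. Batch 3 also differed in its fibroblast markers, 8 genes that summed to 475 CPM in KO and 692 in WT, against 38.9 to 53.7 in the other 4 cultures, and the part of such cells in these levels was not tested.

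The mean standardised profile of the 10 genes over the 6 libraries described *Scd2* (r = 0.97), *Acly* (0.94) and *Acss2* (0.94) best and *Fads1* (0.40) and *Elovl5* (−0.01) least. Among 8765 other genes with a mean of at least 10 CPM, the nearest to this profile were *Ebp* (0.99), *Ctu2* (0.99), *Pim3* (0.99), *Plekhn1* (0.98) and *Xdh* (0.98). These correlations rest on 6 libraries that share batches and condition. Each of the 10 genes is part of the mean it was compared with, which raises its r. The nearest genes were picked for likeness to a profile that holds the difference between conditions, so their calls are no separate evidence. *Xdh* (log2 fold change 0.62, adjusted p = 0.029) and the sterol isomerase gene *Ebp* (0.54, adjusted p = 0.036) were themselves called higher in KO, and *Ctu2*, *Pim3* and *Plekhn1* were not, with 0.17, 0.23 and 0.48.

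Other genes around the pathway were counted in lists. Of 17 tested regulators of lipogenesis, 2 rose and none fell, with a median log2 fold change of 0.11. These were *Mid1ip1*, whose product activates acetyl-CoA carboxylase, with 0.71 (SE 0.11, adjusted p = 0.0069), and *Insig1*, an SREBP target that holds SREBP precursors back, with 0.68 (SE 0.14, adjusted p = 0.022). Of the 17, 4 had an unadjusted p under 0.05, among them *Stard4* (0.34) and *Prkaa1* (−0.40), with adjusted p of 0.19 and 0.16. The SREBP genes were not called: *Srebf1* had 178 ± 22.5 CPM in KO and 164 ± 6.86 in WT (SD, n = 3; log2 fold change 0.11, 95% interval −0.14 to 0.36) and *Srebf2* 261 ± 72.4 and 233 ± 56.0 (0.16, −0.10 to 0.42). Activity of the SREBP proteins was not measured.

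The list of acetyl-CoA and NADPH supply had 11 tested genes, among them *Acacb*, whose product uses acetyl-CoA. Of the 11, 1 rose (2 by DESeq2 or limma-voom, with *G6pdx*), *Pgd* of the pentose phosphate pathway (0.62, SE 0.13, adjusted p = 0.024), and the median was 0.06. Its call was lost without batch 1 and without batch 2. The malic enzyme gene *Me1* had 0.35 (adjusted p = 0.25), and *Acacb*, the mitochondrial carboxylase gene, was near 1 CPM in both conditions. Of 14 other elongation and desaturation enzymes, 1 rose (2 by DESeq2 or limma-voom, with *Elovl4*), the sphingolipid desaturase gene *Degs2*. It had 53.0, 77.5 and 28.6 CPM in KO and 21.3, 37.0 and 8.997 in WT, a log2 fold change of 1.34 (SE 0.16, adjusted p = 0.0022), with batch 3 lowest in both conditions as for *Acss2*. The median of these 14 was 0.20. *Elovl4*, the elongase of very long chains for barrier lipids, had 0.48 (adjusted p = 0.055), *Elovl1* 0.27 (adjusted p = 0.35) and *Elovl7* −0.19 (adjusted p = 0.56).

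Genes that activate and esterify fatty acids came next. Of 20 tested, 3 rose (5 by DESeq2 or limma-voom, with *Dgat2* and *Lpin1*) and none fell, and the median was 0.30. *Acsl3*, an acyl-CoA synthetase gene, had 465, 562 and 304 CPM in KO and 304, 369 and 130.4 in WT, with a log2 fold change of 0.81 (SE 0.14, adjusted p = 0.013). *Lpin2*, a phosphatidate phosphatase gene, had 0.72 (SE 0.16, adjusted p = 0.034) and *Plin2*, the lipid droplet coat gene, 0.54 (SE 0.12, adjusted p = 0.037). The *Lpin2* call was lost without batch 1 or batch 2 and that of *Plin2* without batch 2. Among 11 genes of uptake and binding, 20 of fatty acid oxidation and 7 of mitochondrial fatty acid synthesis 0 passed the test in edgeR, with 3, 4 and 0 at an unadjusted p under 0.05, 2, 1 and 0 called by DESeq2, 1, 1 and 0 by limma-voom, and medians of 0.10, 0.18 and −0.08. *Cpt1a*, which admits fatty acids to mitochondria, had 75.5 ± 2.43 CPM in KO and 63.7 ± 17.1 in WT (SD, n = 3), and the binding protein gene *Fabp5* had a log2 fold change of 0.10. Of 21 genes of sterol synthesis and uptake, 5 rose (10 by DESeq2 or limma-voom), with a median of 0.36: *Hsd17b7*, *Fdft1* (0.60, adjusted p = 0.020), *Ebp*, *Lss* (0.51, adjusted p = 0.048) and *Fdps* (0.51, adjusted p = 0.027). Of these 5 the calls of *Hsd17b7*, *Ebp*, *Lss* and *Fdps* were lost without batch 1 or batch 2, and that of *Fdft1* without batch 1. *Hmgcs1* (0.23, adjusted p = 0.43), the gene of the cytosolic HMG-CoA synthase, did not pass.

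**Figure D4:**
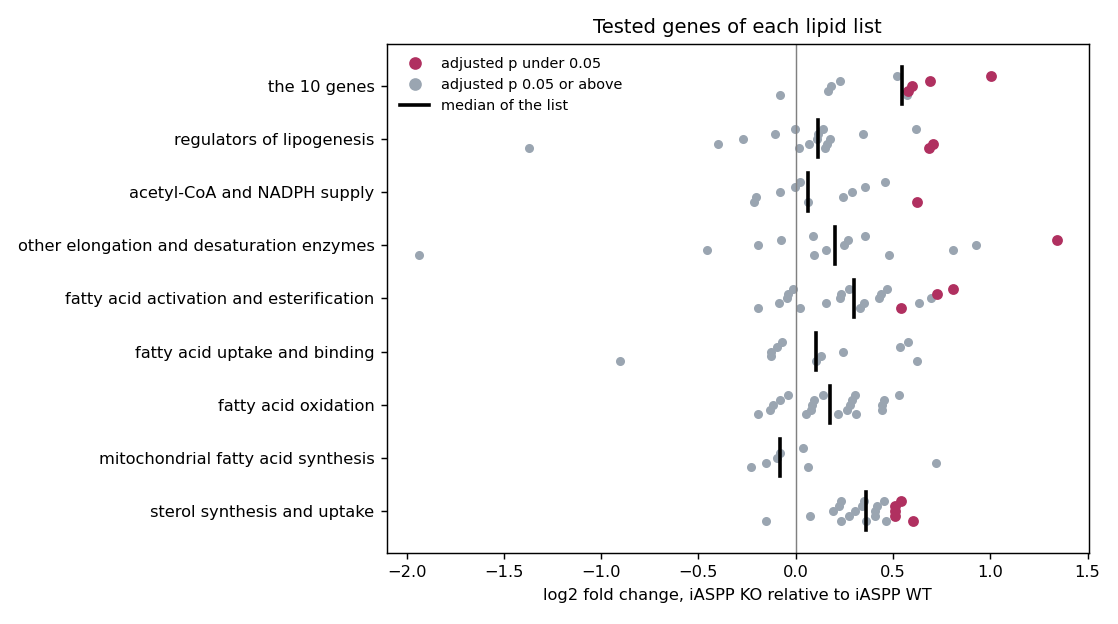
Log2 fold change, iASPP KO over iASPP WT (x axis), of every tested gene of each list; red points had an adjusted p under 0.05 and black bars are list medians. The median of the 10 genes is 0.55 and those of the other lists run from −0.08 to 0.36, and no red point lies below 0.

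Markers of the cultured cell type and of other lipid-making cells were read beside these values. The keratinocyte markers were abundant, with 31222 to 38503 CPM in sum, and 0 of 10 were called by edgeR or DESeq2 and 1 by limma-voom, with 1 at an unadjusted p under 0.05 in edgeR. Of 10 sebocyte markers 7 had a mean under 1 CPM in both conditions and *Awat1* was at 0 in every library, with a sum of 22.0 to 28.6 CPM in KO and 27.2 to 33.0 in WT. Of 10 adipocyte markers 7 had a mean under 1 CPM and *Adipoq* and *Cfd* were at 0, with a sum of 24.4 to 74.7 CPM in KO and 15.4 to 44.7 in WT, most of it *Fabp4* and *Lipe*. In batches 1, 2 and 3 the adipocyte sum was 49.2, 74.7 and 24.4 CPM in KO and 37.7, 44.7 and 15.4 in WT. It was thus higher in KO in each batch, while the sebocyte sum was higher in KO in batch 2 alone. Among 8 fibroblast markers *Col1a2* (log2 fold change −0.54) and *Col3a1* (−0.87) fell by edgeR and DESeq2, and *Col3a1* alone by limma-voom. Of 9 macrophage and leukocyte markers *Csf1r* rose (1.11), *Cd3e* was at 0, and the sum was 64.8 to 83.0 CPM in KO and 43.6 to 64.2 in WT. This sum too was higher in KO in each batch, with 64.8, 70.5 and 83.0 CPM against 43.6, 58.7 and 64.2 in WT. *Col1a2*, *Col3a1*, *Csf1r*, *Hsd17b7*, *Dgat2*, *Lpin1*, *G6pdx*, *Stard4* and *Prkaa1* were named after their values were seen. Of the sebocyte, melanocyte and endothelial markers 0 were called by edgeR, DESeq2 or limma-voom, and 0 had an unadjusted p under 0.05 in edgeR; of the adipocyte markers 0 were called by edgeR, with 2 at an unadjusted p under 0.05, and 1 (*Lipe*) by the other tools. The sums of melanocyte and endothelial markers were 394 to 1033 and 3.02 to 13.0 CPM in KO and 340.4 to 1082 and 3.75 to 7.18 in WT. The part of adipocytes, fibroblasts and leukocytes in the levels of the 10 genes was not tested.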

How the data were processed

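RNA-seq counts of 6 libraries of primary mouse keratinocytes, 3 iASPP KO and 3 iASPP WT, were used. The authors trimmed adapters with cutadapt 2.10, aligned to GRCm38 (mm10) with STAR and the GENCODE vM25 annotation, and deposited raw counts per gene from featureCounts 2.0.0, without normalization. Their table of DESeq2 fold changes and p-values was not used.

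Groups come from the sample titles and pairs from the batch labels, since each batch label is shared by a KO and a WT culture. After subtracting condition means, same-batch cultures correlated at 0.480, 0.614 and 0.711 over 10307 genes, and cultures of different batches at −0.634 to 0.327. Between batches 1 and 2 the values were 0.139 and 0.327, and between batch 3 and the others −0.634 to −0.396. Subtracting a mean of 3 cultures lowers the correlations between different batches, so this contrast is partly built in. Whether batches came from separate animals is not given in the sources used here, so p-values speak only to these cultures. After the batch term, the error of a gene rests on how its differences within batches vary, with 2 residual degrees of freedom. It is moderated by the spread of other genes, with 8.17 prior degrees of freedom.

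The test was edgeR's quasi-likelihood test (edgeR 4.0.16, R 4.3.3) on TMM-scaled counts of genes kept by filterByExpr, with batch and condition as terms, Benjamini-Hochberg adjustment and a threshold of 0.05. The SE is the absolute log2 fold change over the square root of F, and 95% intervals use 10.2 degrees of freedom. For single batches, log2 CPM (prior count 2) of WT was subtracted from that of KO. The fits were tested on simulated counts in which 200 genes were changed by a log2 fold change of 1.5 in size. This is larger than the fitted change of any of the 10 genes. There edgeR with the batch term called 67.5% of the changed genes, and recovery of smaller changes was not tested.

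The genes, lists and motifs were chosen with earlier results of these data known. The genes named are the 10 genes, up to 4 called genes per list with the largest change, a fixed set (the SREBP genes, *Insig1*, *Mid1ip1*, *Me1*, *Acacb*, *Elovl1*, *Elovl4*, *Elovl7*, *Acsl3*, *Fabp5*, *Cpt1a* and *Hmgcs1*, with 1 more that is not reported here), *Ppp1r13l* and the 5 genes nearest in profile. Shared 42-base windows were read from GENCODE vM21 transcripts of the same build, and overlaps from the exon coordinates given with the counts. Alternatives were no batch term, DESeq2 1.42.0, limma-voom 3.58.1, scaling by median ratios or upper quartiles, other filters, robust dispersion, a minimum log2 fold change, and each batch left out.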

Additional observations from a re-analysis of the deposited data

How the results depend on the processing

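The batch term decided the calls. Without the pairing (no replicate block), 0 of the 10 genes and 0 genes overall were called in either direction by edgeR, with 3 of the 10 and 691 of all genes at an unadjusted p under 0.05. With the block in place, the number of the 10 called higher was 4 to 6 under DESeq2 (5), limma-voom (6), other scalings (4), no filter (6), a minimum of 10 counts (4), robust dispersion (4) and without genes under 200 bases (4), and 0 were called lower under any of these. With a minimum absolute log2 fold change of 1 it was 1, and over all genes 125 higher and 140 lower. Leaving out 1 batch gave 2 to 5 of the 10, and 169 to 793 genes higher and 117 to 662 lower, with the most without batch 3. Over all genes, limma-voom called 485 higher and no filter 624 higher and 491 lower, beside 323 and 291. The cause of these differences was not tested. None of the 10 genes changed its direction under any alternative. Leaving out 1 batch moved *Acacb* between −0.76 and 0.57 (0.57 without batch 2, the reverse of its direction) and *Fabp5* between −0.19 and 0.30 (−0.19 without batch 1, likewise), neither called. *Elovl4* was called under 8 alternatives, among them DESeq2 and limma-voom. With 3 pairs, log2 changes of the size of *Acaca*, *Fasn* and *Elovl6* lay within the error.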
